A study of Mus musculus with 16 samples.

Results

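Cell division runs through a fixed order of steps, and 39 genes that act from G2 to cytokinesis were followed here in activated mouse CD8 T cells with and without the transcription factor Batf3. The genes were matched by symbol to a list, with no threshold on their values, and all 39 were found among the 55335 rows of the count table and passed the filter on low counts. That list and the other gene lists below were chosen with earlier results of these data known. In G2, cyclin B and Cdk1 form the kinase that starts mitosis, with Plk1 and the Aurora kinases alongside. Kinetochores then join chromosomes to spindle fibres while the spindle checkpoint holds back the anaphase-promoting complex, and after the chromosomes part a contractile ring divides the cell. CD8 T cells divide rapidly after antigen receptor signals, so these transcripts are known as markers of proliferating T cells.

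The data were poly-A RNA sequencing counts from 16 libraries in 4 groups of 4. The groups were Batf3 ko cells at 72 h, wild-type (wt) cells at 72 h, Batf3 ko cells at 48 h and wt cells at 48 h. All 4 groups were CD8 T cells from C57BL/6 spleens, cultured with IL-15 at 50 ng/ml and activated on plates coated with antibodies to CD3e and CD28 at 1 µg/ml each. According to the series text, libraries within a group are technical replicates, and the p-values therefore describe how such libraries vary, with no information on animals.

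Library totals ran from 29375818 to 39241169 counts. Batf3 ranged from 0 to 0.366 CPM (counts scaled to the library total) in ko and from 28.7 to 34.2 CPM in wt cells at 72 h, and from 0.0585 to 0.189 CPM in ko and from 75.8 to 87.7 CPM in wt cells at 48 h. A count of 0 allows up to 3 reads, by counting error only. Batf3 thus fitted the genotype labels in each of the 16 libraries. ko 48 h replicate 4 and wt 72 h replicate 4 stood apart, with root mean square deviations from their group of 0.175 and 0.163 on the log2 scale against 0.0819 to 0.122 in the other libraries, and counts without both are given with the main comparisons. The summed level of 6 CD8 T cell markers was 2156 to 2271 CPM in ko and 1971 to 2013 CPM in wt cells at 72 h, and 1367 to 1451 CPM in ko and 1319 to 1355 CPM in wt cells at 48 h. Of those 6, 2 were higher and 0 lower in ko at each time. Summed markers of CD4 T cells (2 genes), macrophages, monocytes and granulocytes (7, of which 3 had no read in any library), dendritic cells (4, of which 2 had no read) and red cells (3) stayed at or under 1.02 CPM in every library, and the 5 B cell markers at or under 9.77 CPM. The 3 NK cell markers, which include Eomes, a gene that CD8 T cells also express, summed to 37.1 to 43.3 CPM in ko and 51.9 to 61.0 CPM in wt cells at 72 h, with 1 higher and 1 lower in ko, and to 45.0 to 57.9 CPM in ko and 47.1 to 52.9 CPM in wt cells at 48 h, with 1 higher and 0 lower. The part of these marker shifts in the results below was not tested.

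At 72 h most of the mitotic programme was lower in cells without Batf3. Of the 39 genes 26 (66.7%) were lower and 1 (2.56%), the centromere histone gene Cenpa, was higher in ko than in wt cells (adjusted p below 0.05, edgeR quasi-likelihood test). Over all 15197 tested genes 19.5% were lower and 16.9% higher, 36.4% together. The median log2 fold change of the 39 was -0.28, against -0.0154 for all genes tested. The falls were moderate: the strongest, in the separase gene Espl1, reached -0.68 (SE 0.11), a level 0.624 times that of wt after TMM scaling. In 30 of the 39 genes every ko library lay below every wt library, and in 1 every ko library lay above, where 26.8% and 8.34% of all genes did so. Overlaps here and below were read from CPM without TMM factors. Those factors were 0.9414 to 0.9585 in ko and 1.009 to 1.069 in wt cells at 72 h. Unscaled CPM therefore place ko libraries lower against wt than the tests do. Without both libraries that stand apart, 26 were lower and 2 higher, the second being Nusap1 (0.29, adjusted p = 0.00216). Fewer cells in G2 and mitosis and less of these RNAs per cell cannot be told apart in bulk libraries.

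**Figure D1:**
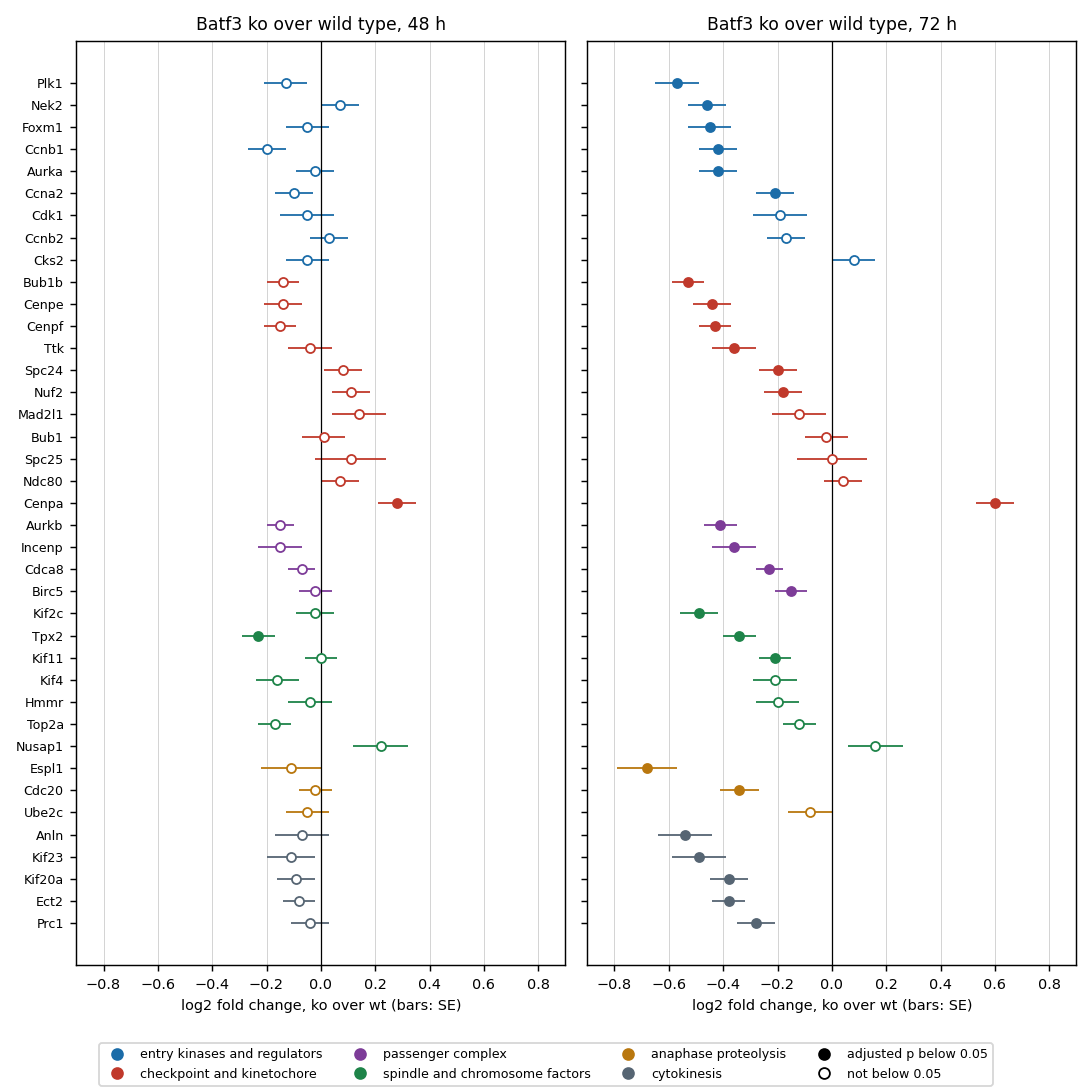
Log2 fold changes (x axis, with SE as bars) of the 39 genes (rows, coloured by step) in ko over wt cells at 48 h and at 72 h, with filled points for adjusted p below 0.05. At 48 h the points lie around 0 with 2 filled, and at 72 h 26 filled points lie left of 0 and 1, Cenpa, at 0.60 right of it.

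Every step of division held genes that were lower in ko at 72 h, to unequal extents. Lower in ko were 6 of 9 entry kinases and regulators, 6 of 11 checkpoint and kinetochore genes, 4 of 4 genes of the chromosomal passenger complex, 3 of 7 spindle and chromosome factors, 2 of 3 genes of anaphase proteolysis and 5 of 5 cytokinesis genes. Cenpa was the 1 gene higher. The counts lower without both libraries that stand apart were 5 of 11 for the kinetochore genes and 4 of 7 for the spindle and chromosome factors, with the other 4 steps at the counts above. With exon length offsets 2 of 7 spindle and chromosome factors, 5 of 11 kinetochore genes and 7 of 9 entry genes were lower. Over all genes tested 19.5% were lower in the main fit. The summed level of the 39 genes was 3983, 3801, 4161 and 4091 CPM in ko and 4711, 4743, 5055 and 4977 CPM in wt cells at 72 h. Those sets of 4 did not overlap, and the ratio of their means was 0.823 (0.898 with TMM-scaled CPM). By step the same ratio was 0.699 for cytokinesis, 0.749 for the passenger complex, 0.763 for the entry genes, 0.764 for anaphase proteolysis, 0.837 for the spindle and chromosome factors and 0.922 for the kinetochore genes. With TMM-scaled CPM these ratios were closer to even, in the same order 0.763, 0.819, 0.834, 0.835, 0.914 and 1.01. The sum of the kinetochore genes thus kept no direction. That sum includes Cenpa, which rose and is a large part of it. Cenpa averaged 361 CPM of a mean sum of 1032 CPM in ko, and 259 CPM of 1120.1 CPM in wt cells. The flat sum therefore does not describe the other kinetochore genes. Per kilobase of exon, Cks2 had the highest mean level at 72 h, 109 CPM in ko and 112 CPM in wt cells, and Anln the lowest, 1.79 CPM in ko and 2.84 CPM in wt cells.

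**Figure D2:**
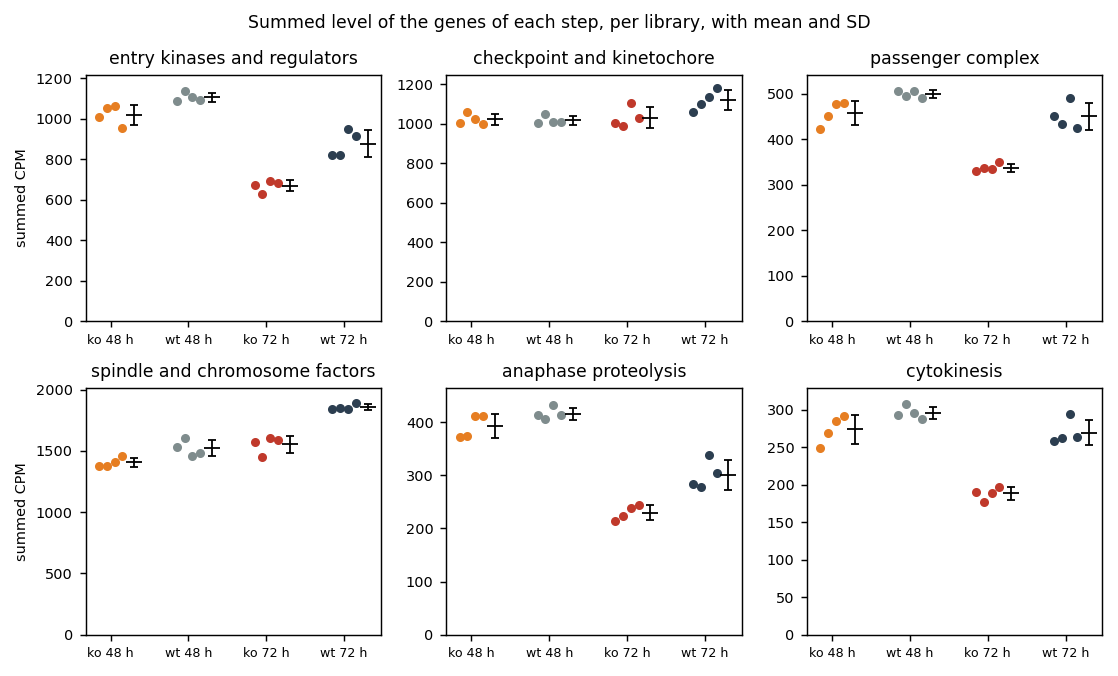
Summed CPM (y axis, from 0) of the genes of each step in every library (points), with the mean and SD of each group in black. The cytokinesis, passenger complex and anaphase sums of all 4 ko libraries lie below all 4 wt libraries at 72 h, while the kinetochore sums of ko (987.4 to 1106 CPM) and wt (1059.9 to 1180.3 CPM) overlap.

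Many G2 and mitosis genes are regulated through short promoter elements, the cell cycle genes homology region (CHR), bound by the MuvB complexes, and the CCAAT box, bound by NF-Y. RefSeq promoter windows (GRCm38.p6, 250 bases before to 50 bases from the annotated start) were found for 32 of the 39 genes; Aurkb, Ccna2, Foxm1, Incenp, Kif20a, Spc24 and Tpx2 had none in that table. The windows of Espl1, Plk1 and Cenpa are printed because Espl1 fell most in ko at 72 h, Plk1 fell most among the entry kinases and Cenpa rose. Capitals mark TTTGAA (CHR) and CCAAT or its reverse ATTGG.
Espl1, chr15:102296043-102296342, plus strand: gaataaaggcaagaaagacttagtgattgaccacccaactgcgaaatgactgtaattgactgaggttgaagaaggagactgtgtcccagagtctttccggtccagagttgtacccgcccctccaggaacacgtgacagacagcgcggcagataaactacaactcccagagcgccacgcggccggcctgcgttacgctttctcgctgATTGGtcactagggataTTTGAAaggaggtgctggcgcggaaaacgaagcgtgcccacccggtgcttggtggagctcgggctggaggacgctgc
Plk1, chr7:122159185-122159484, plus strand: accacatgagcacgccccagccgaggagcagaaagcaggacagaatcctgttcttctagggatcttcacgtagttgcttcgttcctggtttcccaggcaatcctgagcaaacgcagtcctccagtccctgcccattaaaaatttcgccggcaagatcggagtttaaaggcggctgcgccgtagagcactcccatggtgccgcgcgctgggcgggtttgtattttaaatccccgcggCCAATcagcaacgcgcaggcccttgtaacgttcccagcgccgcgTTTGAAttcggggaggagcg
Cenpa, chr5:30666636-30666935, plus strand: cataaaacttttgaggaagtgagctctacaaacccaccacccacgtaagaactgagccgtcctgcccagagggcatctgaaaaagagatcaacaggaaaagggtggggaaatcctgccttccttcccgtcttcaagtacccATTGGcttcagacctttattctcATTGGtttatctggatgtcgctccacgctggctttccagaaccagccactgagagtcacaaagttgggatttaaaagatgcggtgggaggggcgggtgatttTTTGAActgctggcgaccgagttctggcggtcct
All 3 windows held both kinds of letters. In Espl1 the CHR letters began 27 bases before the start and a reversed CCAAT at 44 bases before it. In Plk1 they began at base 31 after the start with CCAAT 14 bases before it, and in Cenpa at base 17 after the start with reversed CCAAT 109 and 86 bases before it. 

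Over the 32 genes with a window, TTTGAA or TTCGAA on either strand occurred in 24 (75.0%), against 19.2% of all 32851 windows in the table. Within 50 bases of the start site they occurred in 23 (71.9%), against 5.31% of all windows. CCAAT on either strand occurred in 25 (78.1%), against 37.4%, and both kinds in 21 (65.6%), against 7.52%. CHR letters and a reversed CCAAT can share bases, as they do in Cdca8. Of the 21 genes with both kinds 12 were lower and 1 higher in ko at 72 h, with a median log2 fold change of -0.23. Of the 11 with a window but not both kinds 7 were lower and 0 higher, with a median of -0.18. All 7 genes without a window were lower. Some windows lie at internal starts. On the minus strand, the Kif2c window ends at 117179022, inside a gene annotated up to 117182639. The Cdca8 window ends at 124937167, inside a gene annotated up to 124939311. Kif2c is among the 11 and Cdca8 among the 21. A match of letters is not a bound site.

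**Figure D3:**
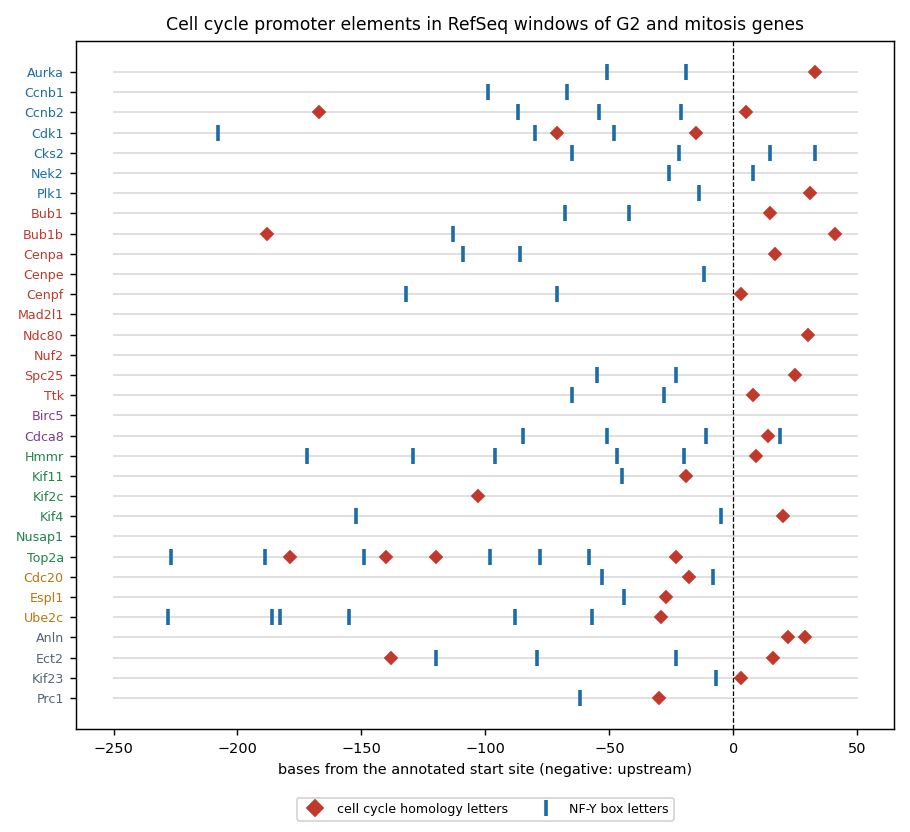
Positions (x axis, bases from the RefSeq start site) of the CHR letters (red diamonds) and the CCAAT letters (blue bars), on either strand, in 1 window for each of the 32 genes (rows, names coloured by step). In 23 genes a diamond lies within 50 bases of the start, while Birc5, Mad2l1, Nuf2 and Nusap1 carry neither kind.

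Among the entry kinases and regulators, Plk1, the Polo-like kinase that acts on centrosomes, kinetochores and cytokinesis (chromosome 7, 122159439 to 122169873, GRCm38), had 34.6, 34.6, 33.8 and 42.9 CPM in ko and 58.7, 55.5, 69.4 and 53.9 CPM in wt cells at 72 h. All ko libraries lay below all wt libraries. It changed by -0.57 on the log2 scale (SE 0.08, adjusted p = 8.85e-06, edgeR quasi-likelihood test). Nek2, a kinase that splits the paired centrosomes (chromosome 1, 191821444 to 191833050), had 32.7, 28.5, 31.4 and 32.9 CPM in ko and 47.1, 45.4, 53.4 and 42.9 CPM in wt cells, again without overlap, and changed by -0.46 (SE 0.07, adjusted p = 1.42e-05). Foxm1, a transcription factor that activates G2 and mitosis genes, had 42.6, 41.1, 37.6 and 41.6 CPM in ko and 62.3, 57.2, 71.9 and 52.2 CPM in wt cells. Its groups did not overlap, and it changed by -0.45 (SE 0.08, adjusted p = 0.000107). Ccnb1, which encodes cyclin B1, had 98.5, 85.8, 92.4 and 88.1 CPM in ko and 120.4, 127, 144 and 142 CPM in wt cells. The groups were separate, at -0.42 (SE 0.07, adjusted p = 7.26e-05). Its partner kinase gene Cdk1 had 118, 115, 140.5 and 134 CPM in ko and 133, 142, 165 and 193 CPM in wt cells, which overlap, with a log2 fold change of -0.19 (SE 0.10, adjusted p = 0.133).

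Aurka, the Aurora kinase of the spindle poles, had 32.8, 30.5, 29.2 and 33.6 CPM in ko and 46.5, 40.1, 53.7 and 44.3 CPM in wt cells and also fell (-0.42, SE 0.07, adjusted p = 7.39e-05). Ccna2, which encodes cyclin A2, fell by 0.21 on the log2 scale (SE 0.07, adjusted p = 0.0201), a call lost without wt 72 h replicate 3 (adjusted p = 0.0605), wt 72 h replicate 4 (0.0511) or ko 72 h replicate 2 (0.079). Ccnb2, cyclin B2, stood at -0.17 (adjusted p = 0.068; 0.0328 without ko 48 h replicate 4). Cks2, a small partner of Cdk1, ranged from 72.9 to 78.9 CPM in ko and from 72.8 to 83.3 CPM in wt cells and stood at 0.08 (adjusted p = 0.415). Cdk1 passed the threshold without wt 72 h replicate 1 (-0.27, adjusted p = 0.0351). Ccna2 shares 510 exon bases with Exosc9 on the other strand, and because the strand setting of the counting is not given, reads there are uncertain.

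**Figure D4:**
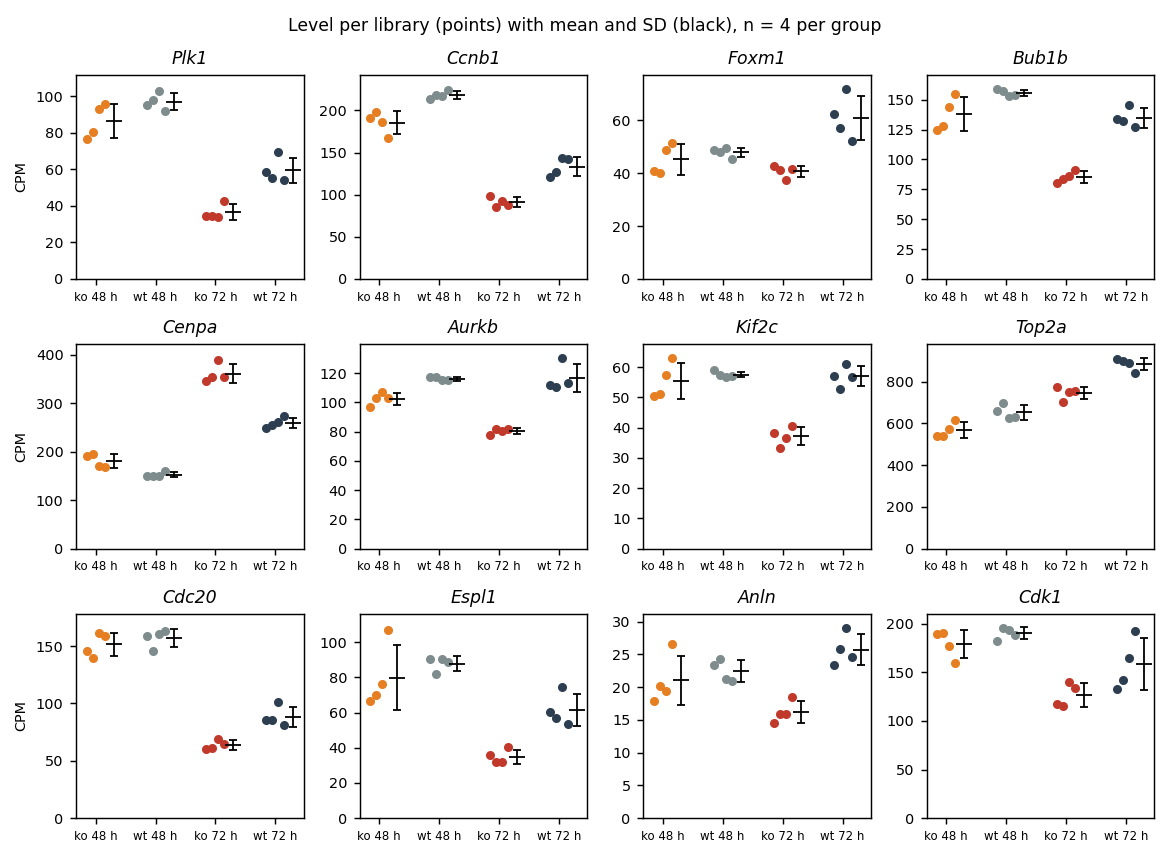
CPM (y axis, from 0) of 12 of the 39 genes in each library (points), with group means and SD in black (n = 4 per group). In Plk1, Bub1b, Kif2c and Espl1 the 4 ko libraries at 72 h form the lowest group, and in Cenpa they form the highest, at 346 to 390 CPM.

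Kinetochore genes moved unevenly. Bub1b, which encodes the checkpoint protein BubR1 (chromosome 2, 118598211 to 118641591), had 80.1, 83.7, 86.5 and 91.4 CPM in ko and 134, 132, 146 and 127 CPM in wt cells at 72 h. The groups were far apart, at -0.53 (SE 0.06, adjusted p = 5.52e-07, edgeR quasi-likelihood test). Cenpe, the kinesin that carries chromosomes to the spindle equator, had 93.5, 80.5, 83.0 and 91.1 CPM in ko and 132, 128, 132 and 125 CPM in wt cells, and changed by -0.44 (SE 0.07, adjusted p = 2.24e-05). Cenpf, which encodes a large outer kinetochore protein, had 52.1 to 56.1 CPM in ko and 76.5 to 84.4 CPM in wt cells. It changed by -0.43 (SE 0.06) and the checkpoint kinase gene Ttk by -0.36 (SE 0.08). By contrast Ndc80, a core subunit of the complex that grips microtubules, had 73.1, 66.5, 82.7 and 67.3 CPM in ko and 74.2, 78.2, 73.8 and 81.2 CPM in wt cells. Its ranges overlap, and it stood at 0.04 (SE 0.07, adjusted p = 0.721).

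Cenpa, the histone H3 variant that marks centromeres (chromosome 5, 30666777 to 30674830), moved the other way. It had 346, 355, 390 and 354 CPM in ko and 248, 256, 260.4 and 273 CPM in wt cells at 72 h. Every ko library lay above every wt library, at 0.60 (SE 0.07, adjusted p = 3.78e-07, edgeR quasi-likelihood test). After the TMM scaling of that fit this is 1.52 times the wt level, more than the unscaled CPM give. No exon of another annotated gene overlaps it. Of the other Ndc80 complex subunits, Nuf2 fell by 0.18 on the log2 scale (adjusted p = 0.0383) and Spc24 by 0.20 (adjusted p = 0.0343), while Spc25 stood at 0.00 (adjusted p = 0.986). The Nuf2 call was lost without any 1 of ko 48 h replicate 2 (adjusted p = 0.0624), ko 72 h replicates 1 (0.0541), 2 (0.1) or 4 (0.112), or wt 72 h replicates 2 (0.113) or 4 (0.0958). The Spc24 call was lost without ko 48 h replicate 2 (0.0507), ko 72 h replicates 1 (0.102), 2 (0.102) or 4 (0.0624), or wt 72 h replicate 3 (0.145). With only the compared groups both calls were lost. The Nuf2 call was lost too with no filter, with exon length offsets and without both libraries that stand apart. Bub1, a checkpoint kinase gene with 95.6 to 114 CPM in ko and 105 to 120 CPM in wt cells, stood at -0.02 (adjusted p = 0.889) and Mad2l1, which encodes the checkpoint inhibitor Mad2, at -0.12 (adjusted p = 0.392).

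All 4 genes of the chromosomal passenger complex, which corrects faulty attachments and later guides cytokinesis, were lower in ko at 72 h. Aurkb, its kinase, had 77.6, 81.7, 80.1 and 81.8 CPM in ko and 112, 110.4, 130.5 and 113 CPM in wt cells, a log2 fold change of -0.41 (SE 0.06, adjusted p = 4.44e-06, edgeR quasi-likelihood test). Incenp, its scaffold, had 73.5, 78.3, 77.6 and 89.5 CPM in ko and 122, 105, 124 and 97.5 CPM in wt cells and changed by -0.36 (SE 0.08, adjusted p = 0.00163). Neither pair of groups overlapped. Cdca8, which encodes borealin, changed by -0.23 (SE 0.05) and Birc5, which encodes survivin, by -0.15 (SE 0.06, adjusted p = 0.0374). The Birc5 call was lost without ko 48 h replicate 2 (adjusted p = 0.0608), ko 72 h replicates 2 (0.0971), 3 (0.106) or 4 (0.0674), or wt 72 h replicates 2 (0.0544), 3 (0.0983) or 4 (0.0604). It was also lost with no filter and with only the compared groups. In wt 72 h replicate 3 Aurkb had 130.5 CPM against 110.4 to 113 CPM in the other wt libraries, and Birc5 113 CPM against 104 to 105 CPM. In that library 22 of the 39 genes were highest of their group. Without it 23 of the 39 genes were lower and 1 higher at 72 h.

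Spindle motors and chromosome factors were mixed. Kif2c, the kinesin that takes microtubules apart at kinetochores, had 38.3, 33.3, 36.7 and 40.5 CPM in ko and 57.1, 52.9, 61.1 and 56.6 CPM in wt cells at 72 h, a log2 fold change of -0.49 (SE 0.07, adjusted p = 9e-06, edgeR quasi-likelihood test). Tpx2, which activates Aurora A on the spindle, had 118, 109.6, 114 and 117 CPM in ko and 167, 154, 167 and 147 CPM in wt cells and changed by -0.34 (SE 0.06, adjusted p = 0.000162). Kif11, the motor that pushes spindle poles apart, had 224, 207, 220.1 and 211 CPM in ko and 266, 278, 262 and 284 CPM in wt cells. Each of these 3 genes had ko libraries below all wt libraries, and Kif11 changed by -0.21 (SE 0.06, adjusted p = 0.00588), a call lost with exon length offsets (-0.13, adjusted p = 0.0966). Top2a, the topoisomerase that untangles sister chromosomes, had 772, 701, 752 and 754 CPM in ko and 909, 899, 887 and 843 CPM in wt cells. Its CPM did not overlap, but after TMM scaling it stood at -0.12 (SE 0.06, adjusted p = 0.0936). Kif4, a chromosome-bound kinesin, was close to the threshold at -0.21 (adjusted p = 0.0502), as was the spindle protein gene Hmmr at -0.20 (adjusted p = 0.0532). Leaving out 1 library brought Kif4 past the threshold when it was ko 72 h replicate 1 (adjusted p = 0.0112), wt 72 h replicate 4 (0.035) or ko 48 h replicate 1 (0.0467) or 4 (0.0248). Hmmr passed when the library left out was ko 72 h replicate 3 (0.0428), wt 72 h replicate 1 (0.0251) or ko 48 h replicate 1 (0.049) or 4 (0.0344). Both genes also passed with library-size scaling and with either other count filter. Kif4 passed too with DESeq2, limma-voom, median-ratio scaling and without both libraries that stand apart. Neither passed with only the compared groups, with the replicate block or with exon length offsets. Nusap1, which bundles spindle microtubules, had 224 to 277 CPM in ko and 214 to 298 CPM in wt cells, at 0.16 (adjusted p = 0.222), which passed without wt 72 h replicate 4 (0.29, adjusted p = 0.00665). Kif4 shares 832 exon bases with Pdzd11 and Nusap1 172 with Oip5, both on the other strand.

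In anaphase proteolysis, Espl1, which encodes separase, the protease that cuts cohesin (chromosome 15, 102296266 to 102324357), had 35.7, 32.0, 31.8 and 40.4 CPM in ko and 60.4, 57.2, 74.3 and 53.4 CPM in wt cells at 72 h. No ko library reached a wt library, and the adjusted p of its fall of -0.68 was 6.21e-05 (edgeR quasi-likelihood test). Cdc20, the activator of the anaphase-promoting complex, had 59.8, 61.3, 69.1 and 64.8 CPM in ko and 85.2, 85.6, 101 and 81.4 CPM in wt cells and changed by -0.34 (SE 0.07, adjusted p = 0.00028). Ube2c, the ubiquitin-conjugating enzyme of that complex, had 118 to 139.6 CPM in ko and 134 to 169 CPM in wt cells, which overlap, and stood at -0.08 (adjusted p = 0.477).

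The 5 cytokinesis genes were all lower. Anln, the actin-binding scaffold anillin of the contractile ring, had 14.5, 15.9, 15.9 and 18.5 CPM in ko and 23.4, 25.8, 29.0 and 24.6 CPM in wt cells at 72 h, a log2 fold change of -0.54 (SE 0.10, adjusted p = 0.000157, edgeR quasi-likelihood test). Kif23, the motor of the centralspindlin complex, had 35.0, 31.5, 30.6 and 38.7 CPM in ko and 47.1, 48.5, 63.1 and 50.4 CPM in wt cells and changed by -0.49 (SE 0.10, adjusted p = 0.000301). Prc1, which crosslinks the microtubules of the midzone, had 47.3, 46.2, 53.8 and 52.6 CPM in ko and 65.1, 64.2, 71.9 and 63.8 CPM in wt cells and changed by -0.28 (SE 0.07, adjusted p = 0.00219). In each of the 3 the genotypes were fully separate. Kif20a, a midzone kinesin, and Ect2, the exchange factor that activates RhoA for the ring, both changed by -0.38. Kif20a had 35.9 to 42.8 CPM in ko and 52.1 to 65.9 CPM in wt cells, and Ect2 44.8 to 53.5 CPM in ko and 64.9 to 71.7 CPM in wt cells. Kif20a shares 1271 exon bases with Cdc23 and Prc1 911 with Rccd1, each on the other strand, and Cdc23 was itself lower at 72 h (-0.46), so the Kif20a value is uncertain.

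At 48 h the genotypes were close in these genes. Of the 39, 1 was higher and 1 lower in ko than in wt cells, against 4.41% higher and 2.66% lower (7.07% together) over all genes tested, and the median log2 fold change was -0.05. Cenpa was the higher one, with 191, 195, 170.5 and 168 CPM in ko and 149.6, 150.4, 149 and 161 CPM in wt cells, at 0.28 (SE 0.07, adjusted p = 0.0106, edgeR quasi-likelihood test). Tpx2 was the lower one, with 127, 136, 161 and 144 CPM in ko and 167, 178, 174 and 162 CPM in wt cells, at -0.23 (SE 0.06, adjusted p = 0.0277). Neither gene's groups overlapped, yet neither call held in every fit that left out 1 library. Cenpa was not called without ko 48 h replicate 1 (adjusted p = 0.05) or 2 (0.0955), nor Tpx2 without ko 48 h replicates 1 (0.107) or 2 (0.0728) or wt 48 h replicates 1 (0.0595), 2 (0.096) or 3 (0.0686). Summed over the 39 genes, ko cells had 4435, 4584, 4669.5 and 4593 CPM and wt cells 4833, 5000.4, 4808 and 4776 CPM. In 5 genes (Ccnb1, Aurkb, Tpx2, Top2a and Kif20a) every ko library lay below every wt library and in 1 above, where 8.76% and 5.69% of all genes did so. The ratio of mean summed levels was 0.941, or 0.965 with TMM-scaled CPM. Without both libraries that stand apart, 3 genes were higher and 8 lower at 48 h. The added calls were Mad2l1 (0.21) and Nusap1 (0.27), higher, and Bub1b, Cenpe, Cenpf, Incenp, Kif4, Top2a and Espl1, lower by 0.18 to 0.26. Without ko 48 h replicate 4 alone 1 was higher and 5 lower, and in that library Espl1 had 107 CPM against 66.4 to 76.0 CPM in the other 3 ko libraries. With DESeq2 the counts were 1 higher and 5 lower. Each of these fits also called more genes over the whole table than the main fit did, as counted in the closing section. The added calls were therefore not confined to these genes. Of the 39 genes, 12.8% were lower with DESeq2 and 20.5% without both libraries that stand apart, against 2.56% in the main fit. Whether these genes gained more calls than others was not tested.

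From 48 h to 72 h most of these genes fell in ko cells. Of the 39 genes 30 were lower and 7 higher at 72 h than at 48 h in ko cells, against 33.6% lower and 34.4% higher (68% together) over all genes tested, and the median log2 fold change was -0.33. The summed level ranged from 3801 to 4161 CPM at 72 h and from 4435 to 4669.5 CPM at 48 h, without overlap. In 28 genes every 72 h library lay below every 48 h library and in 3 above, where 32.8% and 25.9% of all genes did so. Plk1 had 34.6, 34.6, 33.8 and 42.9 CPM at 72 h and 76.8, 80.2, 92.8 and 95.7 CPM at 48 h in ko cells. All 72 h libraries lay below all 48 h libraries, and Plk1 changed by -1.18 (SE 0.08, adjusted p = 3.52e-12, edgeR quasi-likelihood test). Cdc20, with 146, 139.8, 161 and 159 CPM at 48 h in ko cells, also changed by -1.18, Espl1 by -1.12 and Ccnb1 by -0.96. All 5 cytokinesis genes fell in ko cells, by 0.27 (Prc1) to 0.84 (Kif20a), whereas in wt cells 1 of them, Kif20a, did. The interaction of genotype and time for the 5 genes was called for Anln and Ect2, at adjusted p = 0.0441 and 0.0462, in 5 and 3 of the 16 fits that left out 1 library, and for none of the 5 without both libraries that stand apart (Anln 0.0653, Ect2 0.0507). Higher at 72 h in ko cells were Cenpa (1.06), Nusap1 (0.48), Top2a (0.46), Kif4 (0.44), Ndc80 (0.26), Ccnb2 (0.20) and Bub1 (0.19). Foxm1 and Kif11 were the 2 genes not called, at -0.08 (adjusted p = 0.371) and -0.10 (adjusted p = 0.138). Without ko 72 h replicate 3 the Ccnb2 (adjusted p = 0.0536) and Bub1 (0.135) calls were lost, and without ko 48 h replicate 4 those of Ccnb2 (0.072), Bub1 (0.164) and Anln (0.0585). Bub1 was also not called when replicate 1 of ko 72 h (0.0949) or replicate 1 (0.06) or 3 (0.0596) of ko 48 h was left out, Hmmr without ko 72 h replicate 2 (0.0582), and Ube2c without replicate 1 of ko 72 h (0.0627) or replicate 3 of ko 48 h (0.0568). Without both libraries that stand apart 29 were lower and 5 higher.

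In wt cells these genes moved in both directions with time, as genes did over the whole table. The 23 called of the 39 were near the share of all genes called. In wt cells 15 were lower and 8 higher at 72 h than at 48 h, against 29.9% lower and 33.6% higher (63.6% together) over all genes tested, and the median log2 fold change was -0.08. The summed level ranged from 4711 to 5055 CPM at 72 h and from 4776 to 5000.4 CPM at 48 h, which overlap. The groups of 12 genes were separate with 72 h below and of 9 with 72 h above, where 26.8% and 30.8% of all genes were. Lower were 7 of 9 entry genes and 3 of 3 genes of anaphase proteolysis. Cdc20 averaged 88.2 ± 8.47 CPM at 72 h and 157 ± 7.25 CPM at 48 h (SD, n = 4 each) and changed by -0.86 (SE 0.07, adjusted p = 2.74e-11, edgeR quasi-likelihood test). Plk1 and Ccnb1 each changed by -0.74, Cks2 by -0.71, Espl1 and Kif20a by -0.55 and Aurka by -0.48. The 11 checkpoint and kinetochore genes were split, with 3 higher, 3 lower (Bub1b, Spc24 and Spc25) and a median of 0.02. Of the 7 spindle and chromosome factors 3 were higher and 0 lower. Cenpa averaged 259 ± 10.6 CPM at 72 h and 153 ± 5.82 CPM at 48 h (SD, n = 4 each), a change of 0.74. Nusap1 rose by 0.54, Kif4 by 0.49, Top2a by 0.41, Ccnb2 by 0.40, Foxm1 by 0.32, Ndc80 by 0.29 and Bub1 by 0.22. Cdk1 (-0.29) was not called without wt 72 h replicate 1 (adjusted p = 0.0618) or 2 (0.0507), Bub1 without wt 72 h replicate 4 (0.0581) or wt 48 h replicate 1 (0.0559), and Ube2c (-0.20) without wt 72 h replicates 1 (0.12) or 2 (0.126) or wt 48 h replicates 2 (0.0773) or 3 (0.0945). Spc25 (-0.30, adjusted p = 0.0479) was lost in 9 of the 16 fits that left out 1 library, with adjusted p from 0.0522 to 0.155. Without both libraries that stand apart 17 were lower and 8 higher. The 2 time comparisons share no libraries with each other, but each shares its libraries with the genotype comparisons above.

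**Figure D5:**
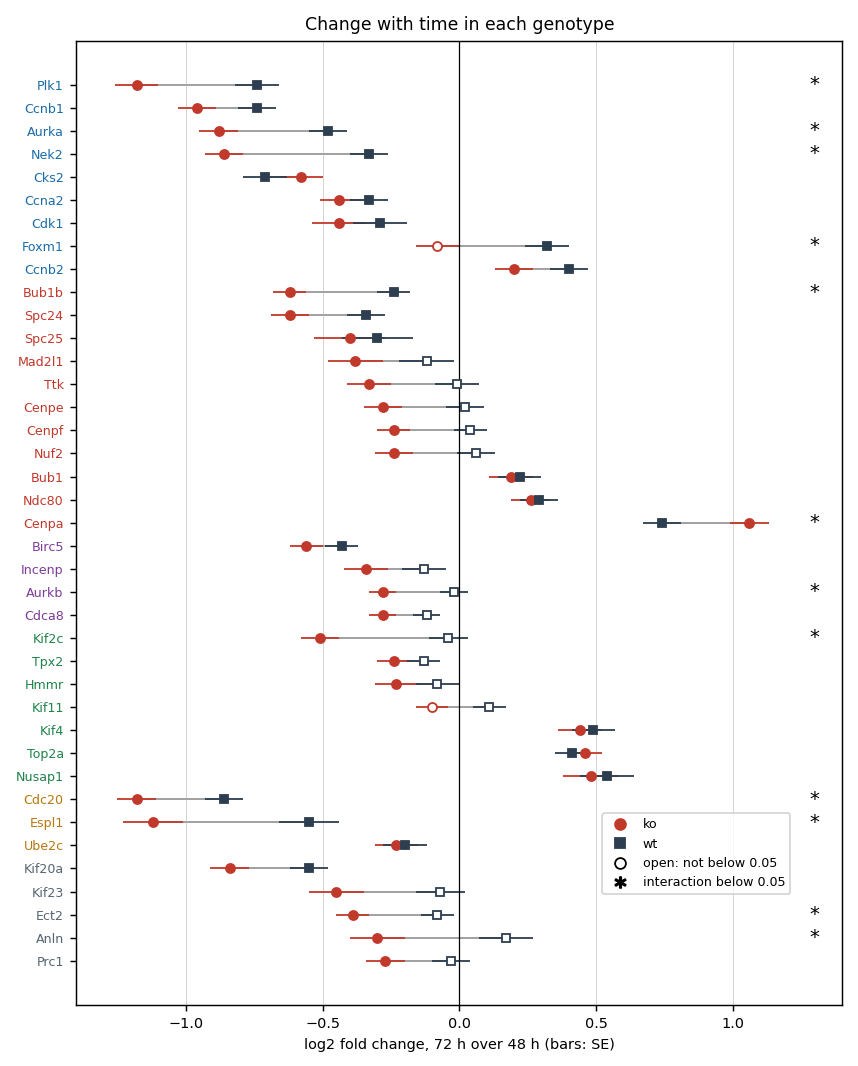
Log2 fold changes of 72 h over 48 h (x axis, with SE as bars) for the 39 genes (rows, names coloured by step) in ko (red circles) and wt cells (dark squares), filled where adjusted p was below 0.05. Asterisks mark the 12 genes with an interaction past the threshold, in 11 of which the red circle lies left of the square.

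The difference in time course was tested as an interaction of genotype and time. It was called in 12 of the 39 genes, 11 lower and 1 higher, against 3.53% lower and 2.08% higher (5.61% together) over all genes tested. The median over the 39 was -0.24, against -0.0389 for all genes. A negative value means that the gene fell more, or rose less, in ko than in wt cells. Nek2 had the lowest adjusted p, at -0.53 (SE 0.09, adjusted p = 0.00166, edgeR quasi-likelihood test), with 54.4, 60.1, 63.1 and 61.6 CPM in ko and 57.4, 59.9, 59.7 and 55.7 CPM in wt cells at 48 h. Its groups overlapped at 48 h and were separate at 72 h. Kif2c was at -0.46 (SE 0.10, adjusted p = 0.00548), with 50.3, 51.1, 57.4 and 62.9 CPM in ko and 58.9, 57.3, 56.7 and 57.2 CPM in wt cells at 48 h. Bub1b was at -0.39 (SE 0.09, adjusted p = 0.0079), with 125, 128, 144 and 155 CPM in ko and 159, 157, 153 and 154 CPM in wt cells at 48 h. Those 3 calls held in all 16 fits that each left out 1 library.

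The other 9 interaction calls were less firm. Aurka (-0.40, adjusted p = 0.0199) held in 13 of the 16 fits, Plk1 (-0.44, adjusted p = 0.0231) in 9, Espl1 (-0.57, adjusted p = 0.0322) in 8 and Foxm1 (-0.40, adjusted p = 0.0356) in 7. Anln (-0.47, adjusted p = 0.0441) and Aurkb (-0.26, adjusted p = 0.0444) held in 5, Cdc20 (-0.32, adjusted p = 0.0405) in 4, and Cenpa (0.32, adjusted p = 0.0458) and Ect2 (-0.30, adjusted p = 0.0462) in 3. Across these fits the adjusted p of the 9 genes reached at most 0.145. Between 3 and 14 genes were called, with 3 when ko 72 h replicate 3 or ko 48 h replicate 3 was left out, and 4 without ko 72 h replicate 2, wt 72 h replicate 3 or wt 48 h replicates 1 or 4. There were 6 without ko 72 h replicate 1 and 7 without wt 48 h replicates 2 or 3. Foxm1 had 40.8, 39.9, 48.7 and 51.4 CPM in ko and 48.7, 47.9, 49.5 and 45.3 CPM in wt cells at 48 h, which overlap. It stood at -0.08 with time in ko cells (adjusted p = 0.371) and rose in wt cells (0.32, adjusted p = 0.0011). In Top2a, Ndc80, Bub1, Nusap1, Kif4 and Ube2c the interaction was between -0.06 and 0.05, with adjusted p from 0.795 to 0.919. Without both libraries that stand apart 11 genes were lower and 1 higher, with Nuf2 and Spc24 called and Anln and Ect2 not called, and with library-size scaling 22 were lower and 0 higher.

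Other genes of the same processes were counted at 72 h as well. Of 125 tested genes in lists of kinetochore, checkpoint, anaphase-promoting complex, condensin and cohesin, G2 and spindle genes, 65 were lower and 8 higher in ko, with a median log2 fold change of -0.22. The fit without both libraries that stand apart called 69 lower and 12 higher. The shares of all genes to read each list against are the 19.5% lower and 16.9% higher given above. The 17 tested of 19 other G2 regulators had 11 lower and 0 higher. Among them Gtse1, a G2 regulator of p53, averaged 21.0 ± 1.43 CPM in ko and 42.2 ± 5.12 CPM in wt cells (SD, n = 4 each), at -0.88 (SE 0.08, adjusted p = 2.2e-08, edgeR quasi-likelihood test). Cdc25a, the phosphatase that activates cyclin-dependent kinases, was at -0.66 and Ccnf, cyclin F, at -0.52. Spindle checkpoint genes had 7 of 8 lower and 0 higher, with Mad1l1, the partner of Mad2, at -0.47, Trip13, the ATPase that remodels Mad2, at -0.43 and Haspin, the kinase that recruits the passenger complex, at -0.42. Spindle, motor and cytokinesis genes had 18 of 34 lower and 0 higher, led by the minus-end motor gene Kifc1 (-0.63), Depdc1b (-0.56) and the nuclear import gene Kpna2 (-0.54).

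Lists of large protein assemblies held genes called in both directions. Of 31 kinetochore and centromere genes 15 were lower and 3 higher. Cenpc1, which bridges Cenpa chromatin to the kinetochore (-0.51), Mis12 (-0.48) and Cenpm (-0.45) were lower, and Cenpp (0.48), Cenpx (0.29) and Cenpl (0.24) were higher. The 3 higher were a smaller share of the 31 than the 16.9% over all genes, and the 15 lower a larger share than the 19.5%. Of 18 genes of the anaphase-promoting complex and its partners 5 were lower, led by the scaffold subunit Anapc1 (-0.49), Cdc23 (-0.46) and the inhibitor gene Fbxo5 (-0.34), and 3 higher, the small subunits Anapc16 (0.47), Cdc26 (0.36) and Anapc13 (0.34). With a median of -0.03, these counts are near the 19.5% lower and 16.9% higher of all genes. The Cdc23 value is uncertain, because its exons overlap those of Kif20a on the other strand. Condensin and cohesin had 9 of 17 lower, led by Ncapg2 (-0.46), the sororin gene Cdca5 (-0.40) and Ncapd2 (-0.39), and 2 higher, Stag2 (0.20) and Ncaph2 (0.19). As in the kinetochore list, the share higher was below that of all genes and the share lower above it.

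Transcription regulators of cell cycle genes were measured as well. Of 19 genes for MuvB, E2F, pocket and NF-Y proteins 6 were lower and 2 higher in ko at 72 h, with a median of -0.16, a count called that is near the 36.4% of all genes. E2f8, a repressor E2F, was at -0.76, Nfya, the sequence-specific NF-Y subunit, at -0.49 and Tfdp1, a dimer partner of E2F, at -0.49. E2f5 (0.31) and Nfyb (0.30) were higher. For comparison outside mitosis, a list of S phase and replication genes had 28 of 41 lower and 1, Orc6 (0.35), higher, with a median log2 fold change of -0.27 beside the -0.28 of the G2 and mitosis genes. There were 28 lower and 2 higher without both libraries that stand apart. Its 3 strongest falls were the origin gene Orc1 (-0.85), the licensing gene Cdc6 (-0.80) and the ribonucleotide reductase gene Rrm2 (-0.73). In the interaction 15 of its 41 genes were lower and 0 higher (20 and 0 without both libraries that stand apart), with Orc1 at -0.64. The summed level of the S phase list was 0.749 times that of wt in ko cells at 72 h (0.818 with TMM-scaled CPM).

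At 48 h 5 of the 125 genes were higher and 5 lower, with a median of -0.03, against 4.41% higher and 2.66% lower over all genes. In the fit without both libraries that stand apart 16 were higher and 12 lower, with a median of -0.05, and the count over all genes was 2552 in place of 1075. Gtse1 (-0.30, adjusted p = 0.0174, edgeR quasi-likelihood test) and Cdc25a (-0.29, adjusted p = 0.019) were already lower, and so was the scaffold subunit gene Anapc1 (-0.23). Higher were 3 centromere genes, Cenpq (0.39), Cenpl (0.28) and Mis18a (0.25), of which Mis18a belongs to the complex that prepares centromeres for new Cenpa. With time, 69 of the 125 were lower and 20 higher at 72 h in ko cells, and 48 lower and 31 higher in wt cells. In ko cells 33.6% of all genes fell and 34.4% rose with time, and in wt cells 29.9% fell and 33.6% rose. The counts without both libraries that stand apart were 73 lower and 22 higher in ko cells, and 51 lower and 34 higher in wt cells. The interaction was called in 23 of the 125, all 23 lower (29 without both libraries), where 3.53% of all genes were lower, with Kifc1 at -0.62 (adjusted p = 0.00178) and Gtse1 at -0.58 (adjusted p = 0.00289). Among the transcription regulators 4 of 19 were lower in the interaction and 0 higher, with E2f8 at -0.67, Nfya at -0.46 and Tfdp1 at -0.42.

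Fold changes across genes followed exon length, and this measure was set beside the result. Between log2 fold change and exon length the Spearman correlation at 72 h was -0.348 over 9284 genes and -0.179 over the 39, described over genes that share the same libraries. With an offset for exon length in each library, fitted over genes, 25 of the 39 were lower and 1 higher at 72 h, their median was -0.31, and their correlation with exon length was 0.179. In the wt time comparison the correlation over the 39 was 0.509, against 0.065 over all genes, and with the offsets it was 0.418 over the 39, with 17 lower and 8 higher.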

How the data were processed

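Poly-A RNA from CD8 T cells was sequenced as 16 libraries in 4 groups. The authors deposited counts per gene as whole numbers; the tools named are STAR 2.7, featureCounts and bcl2fastq 2.2.0 with build GRCm38, per the submitters' processing notes. For annotation release, strand setting and multiply mapped reads the sources used here give nothing. Libraries were made from 100 ng RNA with a stranded kit, per the labels' protocols.

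CPM were computed here from column sums. The main test was edgeR 4.0.16 (R 4.3.3): filterByExpr (minimum count 10), TMM factors and a robust two-sided quasi-likelihood test over all 16 libraries in 1 model of 4 groups. P-values were adjusted by Benjamini-Hochberg over 15197 genes, with a threshold of 0.05, and SE is the fold change over the square root of F. The median biological coefficient of variation was 9.68%. Totals of 29375818 to 39241169 counts limit precision by counting error only. The edgeR fit, DESeq2 1.42.0 and limma 3.58.1 (voom) were first tested on simulated data; DESeq2, limma and other scalings and filters served as alternatives. Exon lengths and overlaps came from GENCODE M21 for 55154 of 55335 identifiers.

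The 39 genes and all lists were chosen with earlier results of these data known. Given in every library were, in each step, up to 2 genes with the largest change each way among those called at 72 h, and fixed genes (Cdk1, Ccnb1, Plk1, Foxm1, Bub1b, Ndc80, Cenpa, Cenpe, Aurkb, Kif11, Top2a, Cdc20 and Prc1). Genes called at 48 h or in the interaction were named too, and up to 3 genes each way of every other list. Promoter letters and overlaps were looked up for all 39. Replicate numbers did not pair libraries. Exon length offsets, and fits without both libraries that stand apart, were added after seeing the data.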

Additional observations from a re-analysis of the deposited data

Results flagged for a closer look

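In 6 of 156 gene and group pairs 1 of the 4 libraries lay far from the other 3 (gap over range above Dixon's critical value); chance flags about 1 in 20 groups. Plk1 had 42.9 CPM in ko 72 h replicate 4, against 33.8 to 34.6 CPM in the other ko libraries. In wt 72 h replicate 3, Aurkb had 130.5 CPM against 110.4 to 113 CPM, Birc5 113 CPM against 104 to 105 CPM, and Prc1 71.9 CPM against 63.8 to 65.1 CPM. At 48 h, Aurka had 61.1 CPM in wt replicate 2 against 63.5 to 63.8 CPM, and Cenpa 161 CPM in wt replicate 4 against 149 to 150.4 CPM.

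The change from 48 h to 72 h differed between ko and wt cells in 12 genes, by the interaction term of the edgeR fit. Its log2 value was -0.57 for Espl1, -0.53 for Nek2, -0.47 for Anln, -0.46 for Kif2c, -0.44 for Plk1, -0.40 for Aurka and for Foxm1, -0.39 for Bub1b, -0.32 for Cdc20, -0.30 for Ect2, -0.26 for Aurkb and 0.32 for Cenpa.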

How the results depend on the processing

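Of the 27 genes called in ko against wt cells at 72 h, 22 were called under every alternative run, with Ccna2, Nuf2, Spc24 and Birc5 lost when single libraries were left out and Kif11 lost with exon length offsets. Nuf2, Spc24 and Birc5 were also lost with only the compared groups, and Nuf2 and Birc5 with no filter. The Nuf2 call was lost too with exon length offsets and without both libraries that stand apart. Of 2 called at 48 h 0 were called under every alternative, of 37 in the ko time comparison 32, of 23 in the wt time comparison 19, and of 12 in the interaction 3 (Nek2, Bub1b and Kif2c). Leaving out 1 library gave 23 to 30 genes at 72 h, 0 to 6 at 48 h, 34 to 37 with time in ko and 20 to 25 in wt cells, and 3 to 14 in the interaction. The 48 h count became 4 with library-size scaling, 6 with DESeq2, 1 with only the compared groups and 11 without both libraries that stand apart. The interaction count became 22 with library-size scaling. With TMM-scaled CPM the summed level at 72 h was 4218 CPM in ko and 4695 CPM in wt cells. Cenpf in the wt time comparison stood at -0.16 (adjusted p = 0.0311) with exon length offsets, against 0.04 without. The cause was not tested. Library-size scaling moved the median of all genes at 72 h by -0.127, gave 1 higher and 33 lower of the 39, and changed the signs of Cks2, Ndc80 and Spc25, which were not called; relative to the median of all genes, the 39 lay at -0.27 with it and -0.26 in the main fit.

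Numbered replicates did not pair libraries: same-numbered libraries had correlations of -0.599 to 0.294, and 5 of 16 libraries correlated best with their own number. With the replicate number as a block 27 genes were called at 72 h, 2 at 48 h, 37 with time in ko and 22 in wt cells, and 7 in the interaction.

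Over all genes, 1075 were called at 48 h (670 higher, 405 lower). DESeq2 called 1658 (839 and 819), median-ratio scaling 614 and 521, library-size scaling 534 and 572, and the fit without both libraries that stand apart 2552; fits without 1 library called 507 to 1955, the lowest without wt 48 h replicate 1 and the highest without ko 48 h replicate 4. At 72 h 2565 were higher and 2961 lower, and 1464 and 4779 with library-size scaling. In the interaction 853 were called, 1414 with library-size scaling (183 higher, 1231 lower) and 446 to 1056 without 1 library.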
